A study of Sorghum bicolor with 34 samples.

Results

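The set described here holds 67 of 47110 transcript IDs (0.142%) of sorghum (Sorghum bicolor, inbred line BTx623) whose RNA level was higher under limiting phosphorus in both the elongation zone of the seminal root and the apex of the lateral roots. The members were selected on measured values. For every pairing of an LP with an SP library, d = log2((LP TPM + 1)/(SP TPM + 1)) was computed, where TPM is a level corrected for transcript length and library size. An ID was kept where d was at least 2 in all 4 pairs of elongation zone libraries and in the 1 lateral pair. In all, 72 IDs (0.153% of those measured) met this rule, and 9 phosphate starvation transcripts, of which 5 met it, were left out by name. The elongation zone pairs alone were met by 186 IDs (0.395%) and the lateral pair alone by 1852 (3.93%), so that 38.7% of the IDs that passed in the elongation zone also passed in the lateral apex, against 3.89% the other way. Because these 6 libraries chose the members, their LP and SP values are given below as a description, without a test.

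Seedlings were grown hydroponically, and RNA was taken at day 10 from plants under LP (limiting phosphorus, 2.5 µM phosphate) or SP (sufficient phosphorus, 45 µM phosphate). The elongation zone libraries (2 LP and 2 SP), labelled root intermediate, hold the segment 2 to 4 cm from the tip of the seminal root. The lateral libraries (1 LP and 1 SP, where the methods state 2 replicates) hold the first 2 cm of longer lateral roots, and the root apex libraries (2 LP and 2 SP) the terminal 2 cm of that root. A replicate is a pool of 10 plants. The elongation zone segments were cut from the same seminal roots as the apices, so libraries of different regions can share plants.

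Phosphorus is taken up as phosphate, and plants that run short of it switch on a set of phosphate starvation genes. Their products release phosphate from organic compounds, take it up and move it, replace membrane phospholipids with galactolipids and sulfolipids, and set the response through proteins with an SPX domain, which sense inositol pyrophosphates. The root tip holds the dividing and expanding cells that meet new soil first, while cells behind it expand, mature and take over uptake and transport. Whether the transcripts described here belong to that program is not given by their IDs: only 1 of the 67 was paired with a gene, and none of the 47110 IDs matched the RefSeq gene table at hand. No role is therefore given for the other members.

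Total estimated counts were 10114584 to 19067049 per library. Elongation zone LP replicate 2 and the lateral SP library stood apart, with 27491 and 27631 transcripts at 1 count or more, against 30843 to 35891 in the other 8. In the lateral SP library 354 transcripts were at 0 that had at least 1 CPM in each other library, in elongation zone LP replicate 2 there were 164, and elsewhere 2 to 27. A fixed number of top-ranked transcripts held 31.6% of all TPM in the lateral SP library, against 11.2% to 20.5% in the other libraries. The part of this concentration in the lateral differences was not tested. Both elongation zone libraries of replicate 2 and both lateral libraries had shorter fragments (166.72 to 168.82 bases) than the other 6 (185.4 to 189.77 bases), so that the 2 same-numbered pairs of the elongation zone and the lateral pair each lie within 1 fragment class. The lateral SP library is replicate 1 by its title, while the name of its deposited table carries replicate 2, so the lateral pair may not be same-numbered. For root apex LP replicate 2 the title gives the root apex but the tissue is labelled whole root. The 2 markers of dividing cells, a cyclin transcript (EES02793) and a MAP65 transcript (OQU92942), were listed at 0 in elongation zone LP replicate 2, at 1.12 and 2.88 TPM in LP replicate 1, and between 0.659 and 5.55 TPM in the SP libraries of that zone. In the lateral pair, which the rule also used, both were higher under LP: the MAP65 transcript had 21.3 TPM under LP and 1.71 TPM under SP (d = 3.04), and the cyclin transcript 0.628 and 0.0910 TPM. In the root apex the MAP65 transcript had 11.8 and 5.88 TPM under LP, against 4.20 and 17.3 TPM under SP, and the cyclin transcript 3.04 and 1.47 TPM against 2.19 and 1.52 TPM. The part of these markers in any result was not tested.

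Summed over the 67 members, the estimated counts made up 1.54% and 2.13% of the 2 elongation zone LP libraries, against 0.0846% and 0.0862% of the SP libraries. In the lateral apex the shares were 1.55% under LP and 0.160% under SP. In the root apex, which the rule did not use, they were 0.319% and 0.385% under LP against 0.103% and 0.0881% under SP. Both LP libraries thus lay above both SP libraries there also. Abundant members weigh most in such sums. In root apex LP, KXG40177 held 826 of 4509 TPM and 2085 of 5037 TPM summed over the members. In root apex SP it held 181 of 1556 TPM and 258 of 1278 TPM. The median member had a mean of 74.4 TPM in elongation zone LP and 2.02 TPM in SP, 45.8 TPM in lateral LP and 1.48 TPM in lateral SP, and 7.04 TPM in root apex LP and 2.48 TPM in SP. The median SP level was low in every region, and the regions stood further apart under LP. The rule asked for high LP levels in the elongation zone and the lateral apex but not in the root apex. It thus favours this order, which carries no test. In such segments of mixed tissue, more cells of a type and more RNA per cell cannot be told apart.

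**Figure D1:**
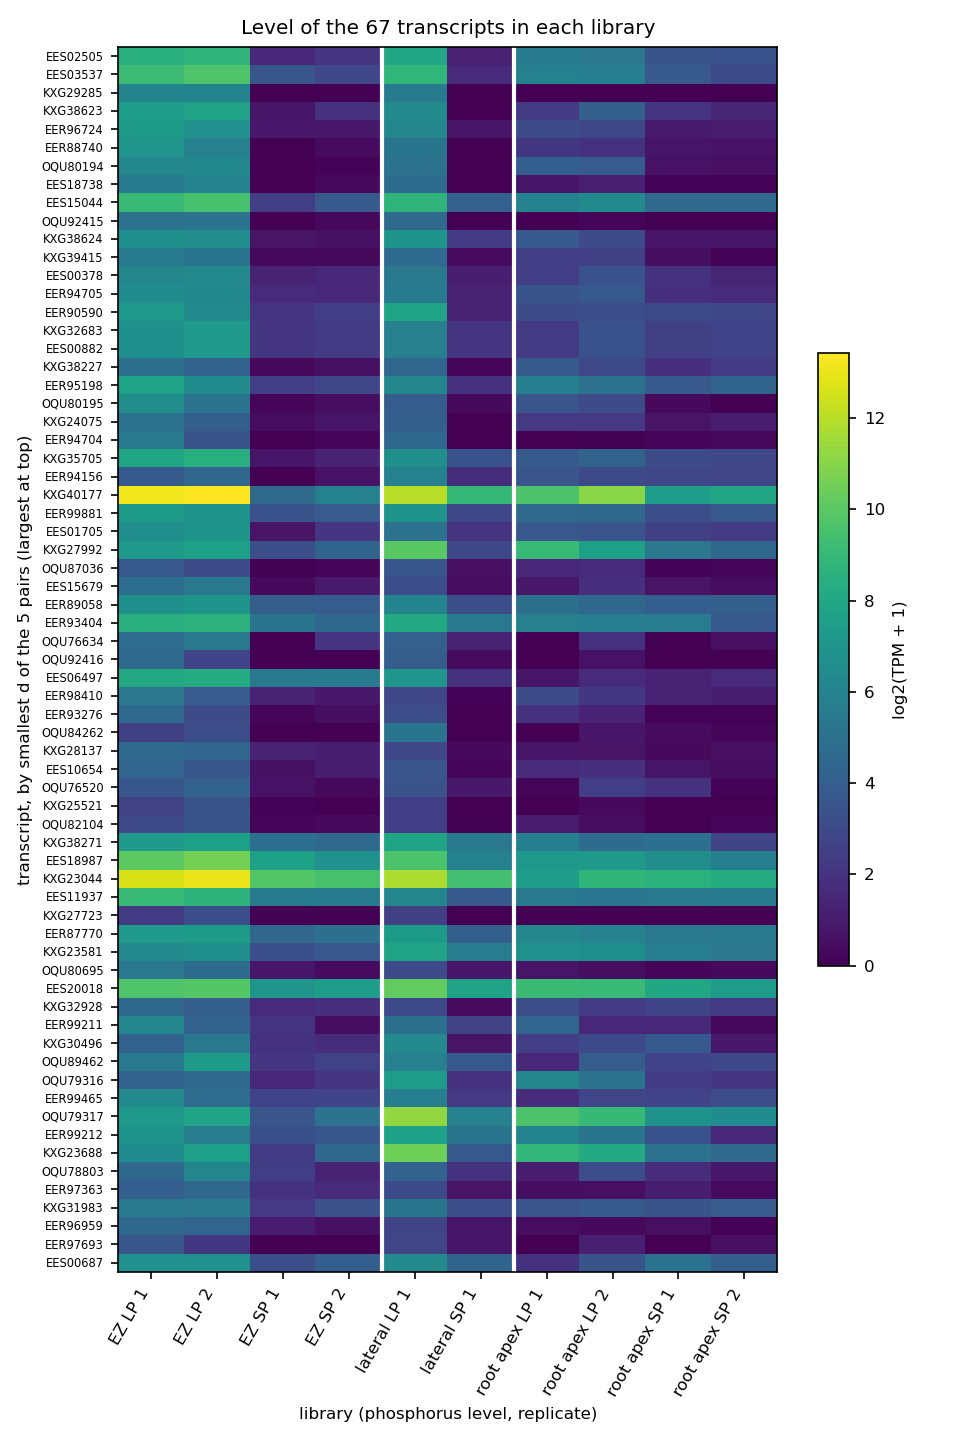
Level of each of the 67 transcripts as log2(TPM + 1), with transcripts from the largest smallest d at the top to those just past the threshold at the bottom and 1 column per library (EZ, elongation zone). LP columns of the elongation zone and the lateral apex are bright for nearly every row, the root apex LP columns are dimmer in most rows, and KXG40177 and KXG23044 are the brightest rows.

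The size of the difference varied among the members. The smallest of the 5 differences ranged over the members between 2.00 and 6.33, with a median of 2.70. It was at least 4 in 14 members, 3 to 4 in 11 and 2 to 3 in 42. The median d was 3.97 in the same-numbered elongation zone pair 1 (long fragments), 3.62 in pair 2 (short fragments) and 3.53 in the lateral pair. The lateral difference was below all 4 elongation zone differences in 31 members and above all 4 in 11.

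**Figure D2:**
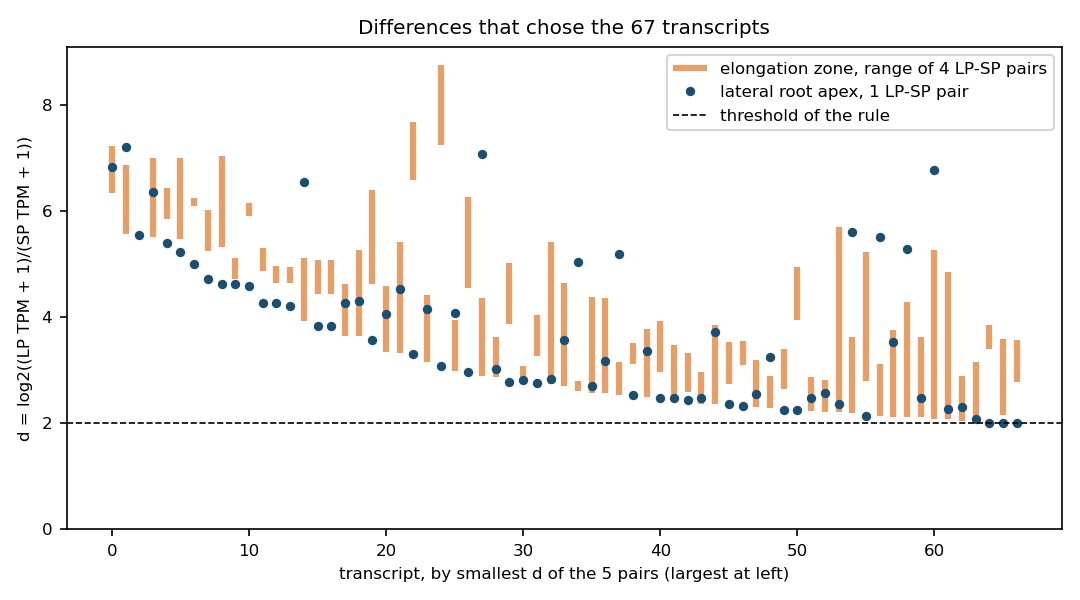
The differences that chose the members, on the vertical axis as d (log2 of the ratio of TPM + 1), for the 67 transcripts by their smallest d. Orange bars span the 4 elongation zone pairs, blue points are the lateral pair, and the dashed line is the threshold of 2; points and bars all lie on or above it because of the rule, and the smallest value of a member was lateral in 31 and from the elongation zone in 36.

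EES02505 had the largest smallest difference. It had 347 and 419 TPM in elongation zone LP, against 1.81 and 3.31 TPM in SP, and 267 TPM in lateral LP against 1.34 TPM in lateral SP. Its root apex levels were 44.4 and 38.5 TPM under LP and 10.1 and 9.26 TPM under SP. In EES02505 the elongation zone thus exceeded the root apex under LP and lay below it under SP. EES03537 came next, with 579 and 855 TPM in elongation zone LP, 11.2 and 6.28 TPM in SP, 464 TPM in lateral LP and 2.14 TPM in lateral SP. EES15044 had the same order of regions under LP, with 544 and 730 TPM in elongation zone LP, 4.57 and 12.6 TPM in SP, 422 TPM in lateral LP and 16.1 TPM in lateral SP. In all 3 transcripts the LP and SP libraries lay far apart, as the rule required.

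KXG29285 was the member closest to an on and off pattern. It had 66.3 and 66.7 TPM in elongation zone LP (600 and 648 estimated counts) and 45.8 TPM in lateral LP (485 counts), against 0 counts in both elongation zone SP libraries and in lateral SP. It also had 0 counts in all 4 root apex libraries, at either phosphorus level. Against a floor of 3 counts over the group, its level was at least 361-fold higher under LP in the elongation zone and, against 3 counts in the library, at least 161-fold higher in the lateral pair. Such floors cover counting error only. OQU92415 was nearly as restricted, with 31.3 and 33.7 TPM in elongation zone LP and 23.5 TPM in lateral LP, against 0 and 0.224 TPM in elongation zone SP and 0 in lateral SP, and at most 0.182 TPM in any root apex library. KXG27723 lay below 0.05 TPM in every root apex and SP library and at 4.13 and 8.31 TPM in elongation zone LP and 4.91 TPM in lateral LP.

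The other transcripts among the 10 with the largest smallest difference were KXG38623, EER96724, EER88740, OQU80194 and EES18738. KXG38623 had 179 and 214 TPM in elongation zone LP, against 0.669 and 2.97 TPM in SP, and EER96724 had 158 and 108 TPM against 0.888 and 0.824 TPM. EER88740 had 127 and 57.5 TPM against 0 and 0.317 TPM, and EES18738 46.7 and 63.6 TPM against 0 and 0.252 TPM. OQU80194 had nearly equal LP values, 73.6 and 75.3 TPM, against 0 and 0.0943 TPM in SP. In the lateral pair these 5 had 25.4 to 80.9 TPM under LP and at most 0.743 TPM under SP.

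The SP side of these differences was often empty. In both elongation zone SP libraries and in lateral SP, 23 members were below 1 TPM, while 9 were above 10 TPM in all 3. At 0 counts in lateral SP, the library with many transcripts at 0, were 11 members, with lower bounds of at least 30.9-fold (KXG25521) to at least 484-fold (KXG38623) for the lateral pair, and 6 of the 11 had 1 TPM or more in a root apex library. At 0 counts in both elongation zone SP libraries were 4 members: KXG29285, OQU92416, OQU84262 and EER97693. Without transcripts at 0 in lateral SP, 56 members were left. The part of that library's missing transcripts in the lateral differences was not tested.

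A pair of members dominated the set by level. KXG40177 had 8980 and 10998 TPM in elongation zone LP, against 24.4 and 57.8 TPM in SP. Its lateral levels were 4103 TPM under LP and 485 TPM under SP, and its root apex levels 826 and 2085 TPM under LP and 181 and 258 TPM under SP. Of the 3 regions, KXG40177 was highest in the elongation zone under LP and lowest there under SP. KXG23044 had 6186 and 8439 TPM in elongation zone LP, against 926 and 732 TPM in SP, and 3532 TPM in lateral LP against 687 TPM in lateral SP. Its root apex libraries held 178 and 432 TPM under LP and 386 and 314 TPM under SP, which overlap. Together the pair made up 1.52% and 1.94% of all TPM in elongation zone LP, against 0.0951% and 0.0790% in SP. These are shares of TPM, while those given above for the whole set are shares of counts. In TPM the 67 members summed to 23719 and 29155 in elongation zone LP and to 1608 and 1481 in SP.

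EES18987 and EES20018 were also among the 5 members with the highest mean level in elongation zone LP. EES18987 had 1057 and 1600.0 TPM in elongation zone LP, against 205 and 110 TPM in SP, and 778 TPM in lateral LP against 58.2 TPM in SP. EES20018 had 841 and 948 TPM in elongation zone LP, against 129 and 178 TPM in SP, and 1196 TPM in lateral LP against 213 TPM in SP. Like KXG40177 and KXG23044, both were above 10 TPM under SP, so their differences do not rest on an SP level near 0. The differences for the remaining members above 10 TPM in all 3 SP libraries (EER93404, KXG38271, EES11937, EER87770 and OQU79317) were at least 2.12.

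The region with the highest LP level differed among the members. Both elongation zone LP libraries lay above both root apex LP libraries for 60 members and below both for 5 (no background share was computed). These 5 (OQU79317, KXG23688, KXG27992, OQU79316 and KXG23581, grouped here after their values were seen) also had more RNA in lateral LP than in either elongation zone LP library. OQU79317 had 2401 TPM in lateral LP against 60.8 TPM in lateral SP, 828 and 516 TPM in root apex LP against 119 and 91.9 TPM in root apex SP, and 150 and 224 TPM in elongation zone LP against 10.5 and 33.8 TPM in elongation zone SP. KXG23688 had 1405 TPM in lateral LP against 11.8 TPM in SP, 481 and 291 TPM in root apex LP against 31.9 and 24.0 TPM in SP, and 91.8 and 191 TPM in elongation zone LP against 3.98 and 21.1 TPM in SP. For both transcripts the LP libraries were above the SP libraries in each region, and under LP the apices held more than the elongation zone.

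KXG27992 followed the same order under LP, with 1011 TPM in lateral LP against 6.50 TPM in SP, 538 and 199 TPM in root apex LP against 38.9 and 21.3 TPM in SP, and 147 and 195 TPM in elongation zone LP against 8.51 and 19.0 TPM in SP. OQU79316 had 171 TPM in lateral LP against 2.80 TPM in SP, 70.1 and 33.8 TPM in root apex LP against 4.18 and 3.34 TPM in SP, and 17.9 and 23.2 TPM in elongation zone LP against 1.78 and 3.29 TPM in SP. KXG23581 differed less, with 231 TPM in lateral LP against 48.2 TPM in SP, 111 and 103 TPM in root apex LP against 51.8 and 38.7 TPM in SP, and 77.7 and 101 TPM in elongation zone LP against 8.66 and 11.6 TPM in SP. Over all members, lateral LP was above both elongation zone LP libraries for 14 and below both for 42. Under SP both elongation zone libraries lay below both root apex libraries for 28 members and above both for 9. As the rule used the elongation zone values, these orders of regions carry no test. Shares over all transcripts were not computed for them, so the counts of members have no background beside them.

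**Figure D3:**
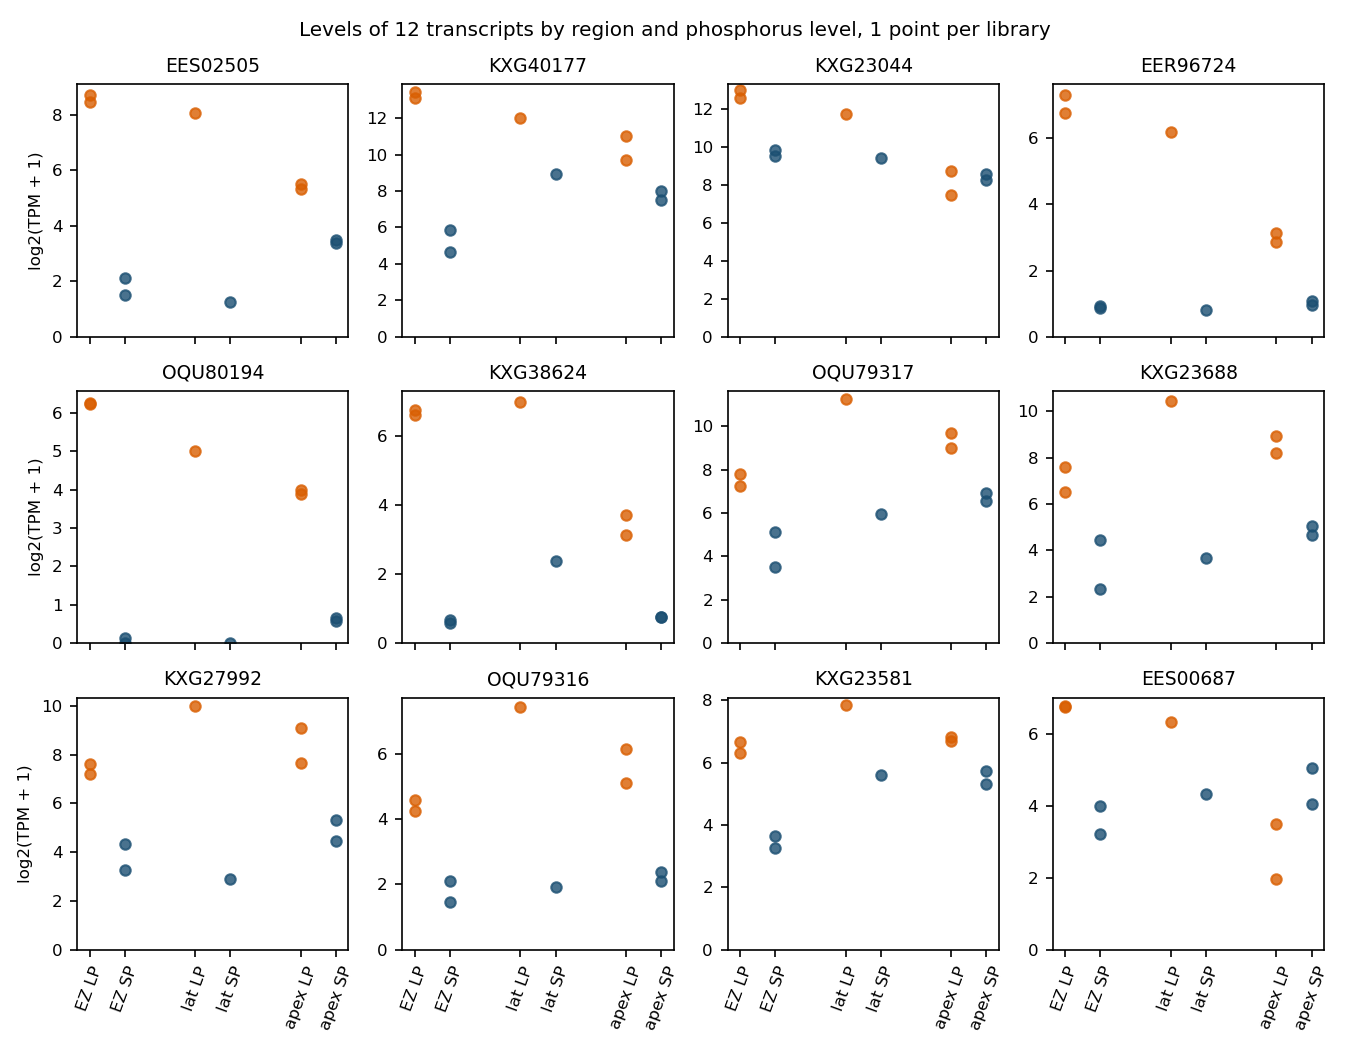
Levels of 12 members as log2(TPM + 1) on the vertical axis, with 1 point per library, LP in orange and SP in blue for the elongation zone (EZ), the lateral apex (lat) and the root apex (apex). EES02505, KXG40177, KXG23044, EER96724 and OQU80194 are highest in elongation zone LP, OQU79317, KXG23688, KXG27992, OQU79316 and KXG23581 are higher in both kinds of apex than in the elongation zone under LP, and EES00687 is lower under LP in the root apex alone.

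OQU82104 was the 1 member paired with a gene, SORBI_3006G173000. It is matched to the Arabidopsis gene AT3G47420, a member of the family that exchanges sugar phosphates or glycerol 3-phosphate across membranes. It had 6.72 and 10.3 TPM in elongation zone LP, against 0.133 and 0.279 TPM in SP, 4.70 TPM in lateral LP against 0.0571 TPM in SP, and 1.11 and 0.409 TPM in root apex LP against 0 and 0.181 TPM in SP. A further transcript of this gene, OQU82103, had 34.1 TPM in elongation zone LP replicate 1 and 0 TPM in replicate 2, against 1.35 and 0.717 TPM in SP, and so failed the rule. In the root apex OQU82103 had 8.66 and 8.79 TPM under LP, against 2.25 and 1.66 TPM under SP. Its lateral pair had 4.11 TPM under LP and 0 TPM under SP. Reads shared by the 2 transcripts are divided between them by estimation, so the split within the gene is uncertain.

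Some members were not separate measurements. KXG32683 and EES00882, both 1265 bases long, had equal estimated counts in every library (to within 0.1%). Their reads could not be told apart and were divided equally, so their values are equal parts of 1 measurement. Among the members, 6 pairs had consecutive ID numbers: EER94704 with EER94705, EER99211 with EER99212, KXG38623 with KXG38624, OQU79316 with OQU79317, OQU80194 with OQU80195 and OQU92415 with OQU92416. Whether the members of a pair come from 1 gene or from neighbours is not shown by the numbers. Within the first pair the root apex levels parted: EER94705 had 10.4 and 12.1 TPM under LP, against 2.66 and 2.08 TPM under SP, while EER94704 had 0 and 0.0389 TPM under LP, against 0.168 and 0.257 TPM under SP. The members were 492 to 7285 bases long with a median of 1416, against 1804 over all IDs.

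The threshold cuts through a continuous range. The last 5 members inside it were EER97363 (smallest difference 2.03), KXG31983 (2.01), EER96959 (2.01), EER97693 (2.00) and EES00687 (2.00), and the first 5 outside it were OQU76798 (1.98), EER99213 (1.97), EER89450 (1.97), EES04716 (1.96) and KXG27232 (1.96). EER99213, next in number to the members EER99211 and EER99212, had 129 and 72.1 TPM in elongation zone LP, against 9.69 and 15.3 TPM in SP, and 166 TPM in lateral LP against 41.5 TPM in SP. It fell outside through the lateral pair alone.

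The root apex libraries took no part in choosing the members, so LP against SP in the root apex was tested (edgeR quasi-likelihood test over 33039 transcripts, Benjamini-Hochberg adjustment). All 67 members were among those tested, although the filter on low counts can be passed through a group in which a member is high by choice. Over the 4 root apex libraries 7 members had under 10 counts. In a fit of the root apex libraries alone, 56 members passed the filter, and their median log2 fold change was 1.80. The fitted log2 fold change had a median of 1.67 over the members (quartiles 0.81 and 2.96), against 0.00 over all transcripts tested (quartiles -0.54 and 0.45). It was above 1 in 47 members, where 12.0% of all transcripts tested lay above 1, and below 0 in 5. Among the 60 members with 10 or more root apex counts, it was above 1 in 43. The share over all transcripts with that many counts was not computed.

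**Figure D4:**
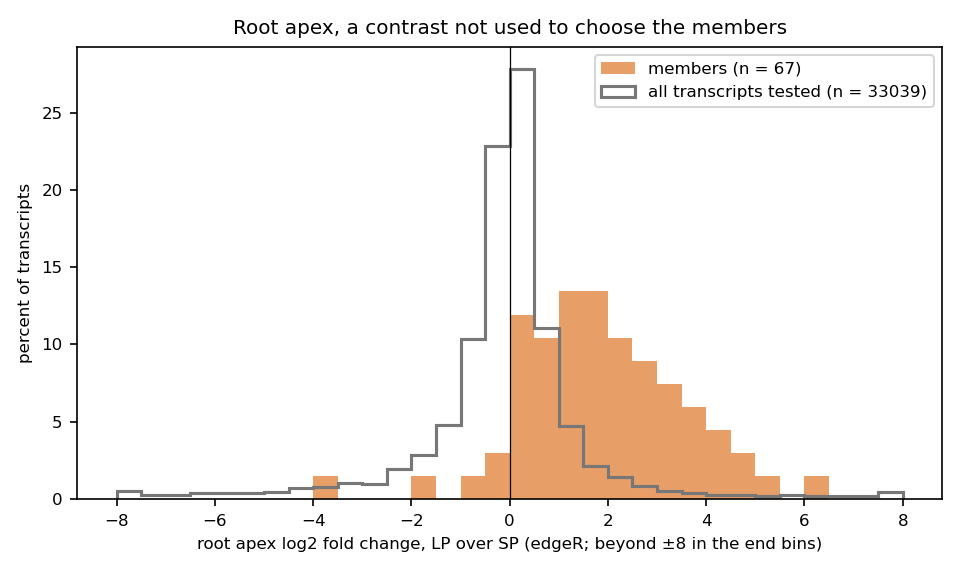
Distribution of the root apex log2 fold change (LP over SP, horizontal axis) as percent of transcripts, for the 67 members (orange) and for all 33039 transcripts tested (grey line). The members lie to the right, with a median of 1.67 against 0.00, and 5 of them lie below 0.

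By call, 3 members were higher under LP and 0 lower, where 0.0363% of all transcripts were called higher (12) and 0.182% lower (60). At an unadjusted p under 0.05, 35 members were higher (3.47% of all transcripts) and 0 lower (5.94%). DESeq2, run as an alternative on the same 10 libraries, called 25 members higher (1.55% of all with an adjusted p) and 0 lower. Both fits estimated the spread in part from the elongation zone libraries that chose the members. DESeq2 was not run on the root apex libraries alone. Both root apex LP libraries lay above both SP libraries in TPM for 42 members (12.9% of all transcripts tested) and below both for 3 (29.9%). On TMM-normalized CPM, which moves the split over all transcripts to 18.9% above and 24.6% below, the counts were 44 and 2 members. A d of at least 2 in all 4 root apex pairs was found for 8 members (0.0785% of all IDs): EES03537, OQU80194, KXG38624, OQU80195, KXG27992, OQU79316, OQU79317 and KXG23688.

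The 3 members that rose in the root apex by the edgeR test were KXG38624, EER96724 and OQU80194. KXG38624 had 11.9 and 7.71 TPM in root apex LP, against 0.683 and 0.698 TPM in SP, a log2 fold change of 3.94 ± 0.30 (SE, edgeR adjusted p = 0.0277). EER96724 had 7.80 and 6.29 TPM in root apex LP, against 0.952 and 1.11 TPM in SP, a log2 fold change of 2.93 ± 0.26 (edgeR adjusted p = 0.0277). OQU80194 had 14.9 and 13.7 TPM in root apex LP, against 0.583 and 0.484 TPM in SP, a log2 fold change of 4.93 ± 0.51 (edgeR adjusted p = 0.0341). The groups did not overlap in any of the 3, which all kept higher levels in elongation zone LP. The 3 calls were lost when any 1 root apex library or either elongation zone SP library was left out (edgeR adjusted p between 0.086 and 0.232 for these 3). They were also lost in a fit of the root apex libraries alone (edgeR adjusted p between 0.0842 and 0.0989). The fit that gave the calls estimated the spread in part from the elongation zone libraries that chose the members. The fit of the root apex alone also holds fewer libraries, and why the calls were lost was not tested. DESeq2, with a spread estimated from the same 10 libraries, called all 3.

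Among members at a mean of at least 5 CPM over all libraries, the largest fitted change was that of OQU80195, the ID next to OQU80194. The LP libraries of the rule can meet that filter. OQU80195 had 10.4 and 7.54 TPM in root apex LP, against 0.254 and 0 TPM in SP, with a log2 fold change of 6.20 ± 0.99 (edgeR adjusted p = 0.0828). It held only 4.64 and 0 estimated counts in root apex SP. Its fitted value was 10.54 without SP replicate 1 and 5.12 without SP replicate 2. KXG39415 had 4.56 and 4.77 TPM in root apex LP, against 0.393 and 0.0838 TPM in SP, with a log2 fold change of 4.45 ± 0.63 (edgeR adjusted p = 0.0619). Neither passed the threshold, although their groups did not overlap. Of the transcripts with more RNA in the apices than in the elongation zone under LP, OQU79316 (3.90 ± 0.51, adjusted p = 0.0541), KXG23688 (3.93 ± 0.86, adjusted p = 0.168), KXG27992 (3.71 ± 0.66, adjusted p = 0.104), OQU79317 (2.81 ± 0.64, adjusted p = 0.178) and KXG23581 (1.42 ± 0.37, adjusted p = 0.244) also missed the edgeR threshold. OQU82104 had a log2 fold change of 3.07 ± 1.14 (edgeR adjusted p = 0.45), and OQU82103 of the same gene, not a member, 2.32 ± 1.84 (edgeR adjusted p = 0.823).

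Other members had root apex fold changes near or below 0. KXG23044, among the most abundant members in the elongation zone, had a root apex log2 fold change of 0.06 ± 0.56 (edgeR adjusted p = 1). EES06497 had 271 and 301 TPM in elongation zone LP, against 42.8 and 43.5 TPM in SP, but only 0.725 and 2.02 TPM in root apex LP, against 1.52 and 2.20 TPM in SP. EER99465 had 86.3 and 27.2 TPM in elongation zone LP, against 5.47 and 5.45 TPM in SP, and 2.27 and 6.01 TPM in root apex LP, against 5.44 and 8.04 TPM in SP. Their groups overlapped in the root apex. EES00687 went the other way there, with 2.94 and 10.3 TPM in root apex LP, against 32.1 and 15.8 TPM in SP, a log2 fold change of -1.56 ± 0.72 that did not pass the test (edgeR adjusted p = 0.584).

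The root apex values are given next by how far a member had passed the rule, as a description. The median root apex log2 fold change was 2.60 in the 14 members with a smallest difference of at least 4, 1.37 in the 11 members of 3 to 4 and 1.38 in the 42 members of 2 to 3. Both LP libraries lay above both SP libraries in TPM for 12, 8 and 22 of them (12.9% of all transcripts tested). The groups were cut on the values of the rule, and a relation to the root apex was not tested. By LP level in the lateral apex the medians were 1.47 in the 14 members with lateral LP above both elongation zone LP libraries and 1.83 in the 42 members with lateral LP below both, with ranges that overlapped.

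Leaving out root apex LP replicate 2, labelled whole root in its tissue field, lowered the members' median to 0.95 on the log2 scale, and 33 members were above 1, against 10.9% of all transcripts in that fit. Without that library 13 members changed sign, KXG23044 to -0.99 and OQU92415 to -2.25 among them. Without the other root apex libraries the median was 1.67 to 1.96. Root apex LP replicate 1 on its own, an easier criterion than both LP libraries, lay above both SP libraries in TPM for 45 members, against 36.5% of all transcripts tested.

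**Figure D5:**
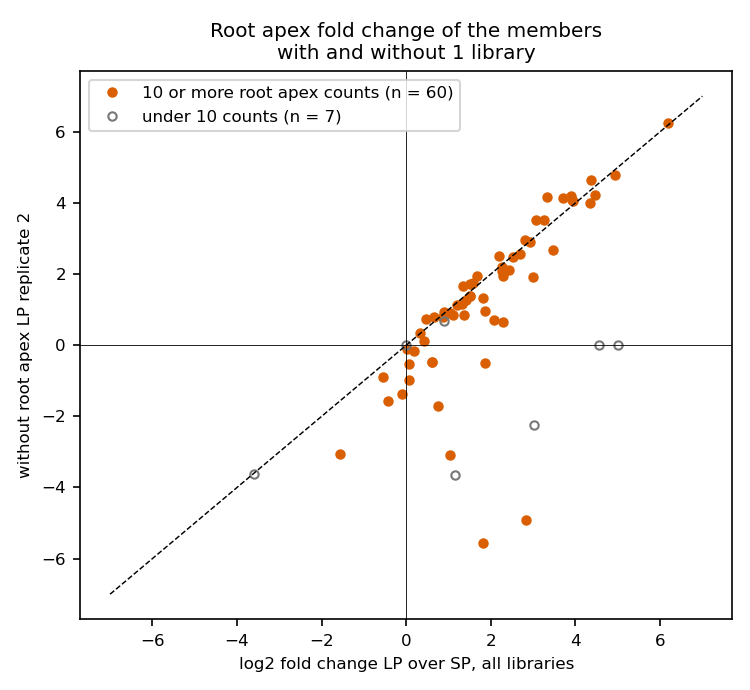
Root apex log2 fold change of each member (LP over SP) with all libraries on the horizontal axis and without root apex LP replicate 2 on the vertical axis. Filled points have 10 or more root apex counts (60 members) and open points fewer (7), and most points lie near the dashed line of equality, with a group below it that falls under 0 without that library.

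For comparison, a list of known phosphate starvation transcripts was read in the same fit. The list holds 24 transcripts for inositol kinases, phosphatases, a pyrophosphatase, transporters, an E2 enzyme, SPX proteins, phospholipase D zeta and the synthesis of sulfolipids and galactolipids, and 6 of them met the rule, OQU82104 as the 1 member. In the root apex 23 were tested, of which 1 was called higher (EES14277, matched to an Arabidopsis galactolipid synthase gene, log2 fold change 4.28 ± 0.41, edgeR adjusted p = 0.0311) and 0 lower. At an unadjusted p under 0.05, 7 were higher (3.47% of all transcripts tested) and 1 lower (5.94%). DESeq2 called 4 higher (1.55% of all with an adjusted p) and 1 lower (761 of 25306). The median log2 fold change of the 23 was 0.46, against 0.00 over all transcripts tested. Both LP libraries lay above both SP libraries in TPM for 11 of the 23 (12.9% of all transcripts tested) and below both for 4 (29.9%). Some listed IDs share a gene, and the E2 transcript (EES19930) had -2.45. The members were chosen for rises in other regions, so their median is not a like measure.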

How the data were processed

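The authors used Trimmomatic for trimming, SAMtools for merging and kallisto with the v3.4.1 sorghum genome for quantification. The deposited files hold estimated counts and TPM per transcript for 10 RNA-seq libraries. Of kallisto, the version and strand setting were not given in the sources used here. Transcript lengths and effective lengths in the deposited files gave the fragment lengths. Estimates below 0.01 counts were read as 0. The rule used TPM with a pseudocount of 1.

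Counts were rounded and fitted with edgeR 4.0.16 (limma 3.58.1, R 4.3.3) on all 10 libraries as 6 groups, with TMM, filterByExpr by group, quasi-likelihood tests and Benjamini-Hochberg adjustment over 33039 transcripts at a threshold of 0.05. There were 4 residual degrees of freedom, from the root apex and elongation zone replicates, and the lateral libraries added none. The p-values measure the spread between replicate libraries, each from a pool of plants. That spread also holds the differences in fragment length between the elongation zone replicates and any effect of the tissue label of root apex LP replicate 2. The scripts were tested on simulated data. Alternatives were DESeq2 1.42.0, other scalings and filters, a replicate block and leaving out libraries. Standard errors are the log2 fold change divided by the root of the F statistic, and TPM values are per library, so no SD is given.

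Members and lists were chosen with earlier results of these data known. Named transcripts were members paired with a gene, the 10 largest smallest differences, the 5 on each side of the threshold, members called in the root apex, the 5 highest in elongation zone and lateral LP, and the 3 largest and smallest root apex fold changes at a mean of at least 5 CPM. Others were named after their values were seen. The deposited methylation tables hold the authors' own comparison and were not used, and ChIP samples were not analysed here. Only 775 IDs (1.65%) were paired with a gene.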

Additional observations from a re-analysis of the deposited data

Results flagged for a closer look

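In 2 members both root apex LP libraries lay below both SP libraries on TPM and on TMM-normalized CPM. Over all transcripts tested, 29.9% lay below in TPM and 24.6% in TMM-normalized CPM. The direction in these 2 members was against the one that the rule fixed for the elongation zone and the lateral apex. EES00687 had a root apex log2 fold change of -1.56 (LP over SP), with 2.94 and 10.3 TPM under LP and 32.1 and 15.8 TPM under SP, while its elongation zone levels were 108 and 109 TPM under LP and 8.34 and 14.9 TPM under SP. EER94704 had a fitted value of -3.61 that rests on 3.10 estimated counts over the 4 root apex libraries, so its direction there is not established. EES11937 did so in TPM only, with 41.8 and 38.0 TPM under LP and 42.4 and 47.5 TPM under SP, and its fitted log2 fold change was 0.01. The difference between regions was not tested, since the elongation zone values chose these members.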

How the results depend on the processing

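The set depends on the rule. Against 72 IDs that passed, a pseudocount of 0.1 TPM gave 187, a pseudocount of 5 TPM 36 (34 members among them), a threshold of 1.5 gave 156, a threshold of 3 gave 28 (25 members), the elongation zone pairs alone 186 and the lateral pair alone 1852. Leaving out 1 elongation zone library gave 102 to 128. TMM-normalized CPM gave 90, of which 55 were members.

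In the root apex, 3 members and 72 transcripts were called by edgeR. With no filter on low counts there were 9 and 178, with DESeq2 on all 10 libraries 25 and 1153, and with edgeR on the root apex libraries alone 0 and 0. Leaving out 1 library gave 0 to 10 members and 0 to 267 transcripts. Both counts were 0 without any 1 root apex library, without elongation zone SP replicate 1 or without SP replicate 2. Without LP replicate 1 of the elongation zone they were 7 and 260, and without its LP replicate 2 they were 10 and 267. No alternative called a member lower under LP. The median log2 fold change of the members stayed between 0.95 and 1.96 when 1 library was left out. When 1 root apex library was left out, the remaining LP libraries lay above the remaining SP libraries in TPM in 43 to 54 members. This criterion gets easier with fewer libraries. The share over all transcripts tested was computed only without LP replicate 2 (36.5%), so the other counts have no background beside them. The cause of these changes was not tested.

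The fitted root apex log2 fold change of 8 named members changed sign when 1 root apex library was left out. The ranges over the libraries left out were -2.25 (LP replicate 2) to 5.20 in OQU92415, -0.17 (LP replicate 2) to 0.48 in KXG31983, -5.56 (LP replicate 2) to 7.31 in EER97693, -0.99 (LP replicate 2) to 0.66 in KXG23044, -1.58 to 0.19 (LP replicate 1) in EER99465, -1.36 to 0.47 (LP replicate 1) in EES06497, -1.27 to 0.78 (SP replicate 1) in EER97363 and -0.42 (SP replicate 2) to 1.71 in EER96959. None of these values passed the test.

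The labels share replicate numbers without saying that they pair samples, and same-numbered deviations correlated at 0.00594 in the root apex and 0.135 in the elongation zone. With the replicate block edgeR called 0 members and 3 transcripts, the members' median was 1.57, KXG23044 was at -0.10, and KXG38624, EER96724 and OQU80194 had edgeR adjusted p of 0.0510, 0.0517 and 0.0528. Same-numbered pairs as the rule's replicate block gave 88 IDs.

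Depth and replication limit the root apex test, with 2 libraries per level and 7 members with under 10 counts there. The common dispersion of the fit, estimated over all 10 libraries and not the root apex alone, was 0.346.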
